A study of Macaca mulatta with 52 samples.

Results

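Among 9 single 8-cell embryos of the rhesus monkey (Macaca mulatta) sequenced with the SPIA kit, 3 held high levels of both VCAN and INHA, transcripts known from the cumulus cells that surround the oocyte, and the other 6 did not hold both. The 3 embryos carry the title codes 020816_06, 020816_07 and 112815_02, and the other 6 are 011516_02, 011516_03, 020816_08, 020816_09, 020816_10 and 112815_01. The embryos were chosen by their measured VCAN and INHA, so every gene of this contrast counts as used in the choice, and all values below are descriptions without a test. A second kit, SoLo, was used on 4 of the same embryos, namely the 3 high embryos and 020816_08. These 9 SPIA and 4 SoLo libraries stand among 49 matched libraries of the study, which compared 8-cell embryos, morulas and blastocysts.

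All embryos came from females stimulated with recombinant FSH and hCG, whose oocytes matured in vivo, were inseminated in vitro and were cultured in the defined medium HECM-9. The medium held relaxin for some embryos and not for others, and the labels do not say for which. The labels give no genotype, parent or age for any embryo, and no stated condition separates the groups. The protocols state that cumulus cells were stripped off by repeated pipetting through a narrow tip before RNA was isolated. SPIA amplifies cDNA linearly from a primer that is part RNA, and SoLo is a low-input kit that depletes ribosomal sequences.

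Cumulus cells are granulosa cells that enclose the oocyte and reach it through processes that cross the zona pellucida. After the ovulatory LH or hCG signal, EGF-like ligands such as amphiregulin act on them, and they spread apart in a matrix of hyaluronan held together by versican and TNFAIP6. Granulosa cells secrete inhibin, make oestradiol with aromatase and, as they luteinise, make progesterone.

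Totals, in M (mega) counts, were 7.97 to 20.6 M in the SPIA libraries of the 3 high embryos and 5.08 to 17.4 M in those of the other 6, and 7.07 to 8.47 M over the 4 SoLo libraries. The 3 high embryos had 9406 to 10421 identifiers at 1 count per M counts (CPM) or more in SPIA, against 7338 to 10440 in the other 6. Embryo 020816_09 stood apart in SPIA: its oocyte and maternal-effect genes summed to 13119 CPM, against a median of 1455 CPM in the 3 high embryos and of 1533 CPM in the other 6. A count of 3, taken as the limit that a count of 0 allows, equals 0.115 to 0.431 CPM in SPIA and 0.283 to 0.401 CPM in SoLo, and such limits cover counting error only. In whole embryos, more cells of a type and more RNA per cell cannot be told apart.

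VCAN (ENSMMUG00000011513) encodes versican, the large proteoglycan of the expanding cumulus matrix, and it was the most abundant of the 4 markers used for cumulus and granulosa cells. In SPIA its level was 325, 1563 and 662 CPM in 020816_06, 020816_07 and 112815_02, against a lowest value of 0.758, a median of 8.28 and a highest of 215 CPM in the other 6 embryos. The groups did not overlap, but 011516_02 held the 215 CPM and lay closer to 020816_06 than to any of the 5 embryos grouped with it, the next of which, 112815_01, held 21.4 CPM. SoLo gave 466, 2079 and 943 CPM in the 3 embryos, against 3.05 CPM in 020816_08. The order of the 3 embryos was the same with both kits, with 020816_07 highest. The means were 850 ± 640 CPM (SD, n = 3) and 42.5 ± 84.9 CPM (SD, n = 6). Their difference on the scale of log2(CPM + 1) was 6.03 ± 1.23 (SE).

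INHA, the alpha subunit of inhibin, separated the same embryos at a far lower level. SPIA gave 15.1, 9.37 and 10.9 CPM in the 3 embryos, against 0 to 0.184 CPM with a median of 0.112 in the other 6, a difference of 3.53 ± 0.19 (SE) on the log2(CPM + 1) scale. In SoLo it was 13.1, 37.3 and 37.3 CPM, against 0 CPM in 020816_08. Embryo 011516_02, with high VCAN, held 1 count of INHA, or 0.132 CPM, so it met only the VCAN side of the rule.

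AREG encodes amphiregulin, the EGF-like ligand that granulosa cells release after the ovulatory signal. It was not part of the choice of embryos, although it comes from the same libraries. In SPIA it was 31.6, 35.3 and 72.4 CPM in 020816_06, 020816_07 and 112815_02, against 0 to 1.72 CPM with a median of 0.0917 in the other 6. The highest of the 6 was again 011516_02. SoLo gave 28.7, 30.0 and 204 CPM in the 3 embryos, against 0.226 CPM in 020816_08, so 112815_02 was the highest with both kits.

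TNFAIP6, whose protein transfers heavy chains onto hyaluronan in the cumulus matrix, did not go with the other 3 markers. In SPIA it was 0.184, 0.0765 and 1.25 CPM in the 3 high embryos, against a lowest value of 0, a median of 0.111 and a highest of 107 CPM in the other 6. The 107 CPM came from 020816_09, which held 5.11 CPM of VCAN and 0.0913 CPM of AREG. In SoLo, 112815_02 held 6.29 CPM and the other 3 libraries at most 0.189 CPM. VCAN and INHA were used to choose the embryos, so they cannot bear out the label of embryos with cumulus transcripts. Of the markers outside the choice, AREG goes with that label and TNFAIP6 goes against it. The embryos are therefore called the high embryos here. The summed CPM of the 4 markers was 372, 1608 and 746 in the 3 high embryos, against 1.44 to 217 in the other 6 in SPIA.

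**Figure D1:**
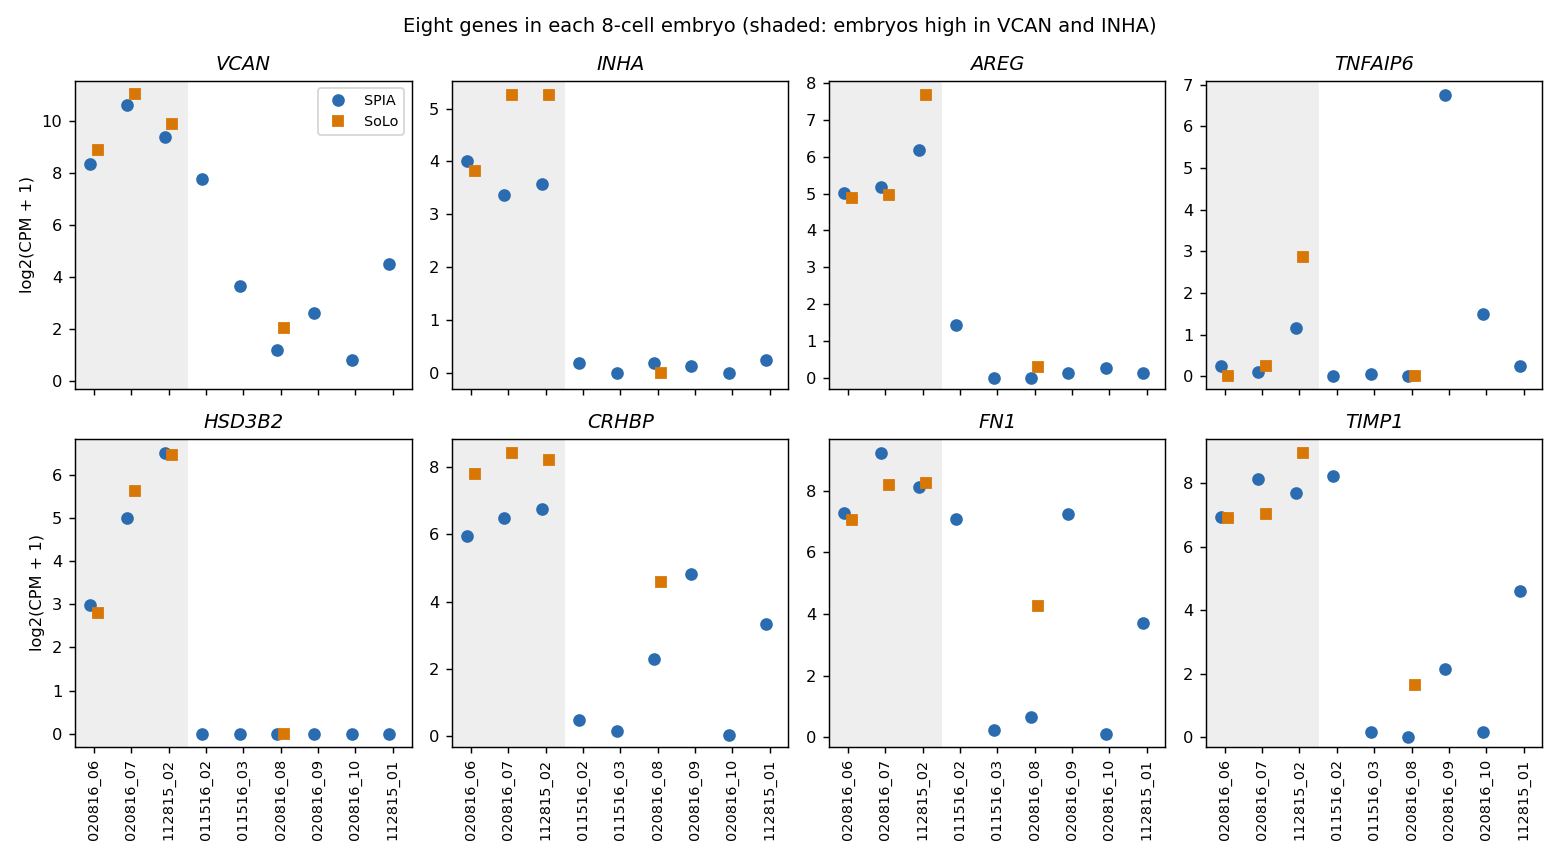
Levels of 8 genes in each 8-cell embryo on a log2(CPM + 1) axis, with circles for SPIA and squares for SoLo libraries; the 3 embryos high in VCAN and INHA are shaded at the left. VCAN, INHA, AREG, HSD3B2 and CRHBP are high in all 3, with VCAN also at 215 CPM in 011516_02 and CRHBP at 27.5 CPM in 020816_09, while TNFAIP6 is highest in 020816_09 and TIMP1 is highest in 011516_02 in SPIA.

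The later stages, which the choice did not use, held little of these markers. Over 36 morula and blastocyst libraries of both kits the marker sum ranged from 0.450 to 18.4 CPM. The highest level in any of them was 18.1 CPM for VCAN, 2.27 CPM for INHA and 0.351 CPM for AREG, all below the lowest of the 3 high embryos. The INHA value came from expanded blastocyst 111715_05 in SPIA, whose library held only 0.601 M counts. Since the high embryos were chosen for VCAN and INHA, this order follows largely from the choice for both genes. The other 6 embryos of the 8-cell stage also had low medians in SPIA, 8.28 CPM for VCAN and 0.112 CPM for INHA. TNFAIP6 differed from the other 3 here too: it reached 16.7 CPM in morula 020816_04, above its level in all 3 high embryos, and made up most of the 18.4 CPM sum of that library.

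To list the genes that came with the markers, an identifier was called higher in SPIA when the lowest of the 3 embryos lay above the highest of the other 6 and the means differed by at least 2 on the log2(CPM + 1) scale, a 4-fold difference that understates the change of low genes. Of 10915 identifiers with at least 1 CPM in 3 or more of the 9 libraries, 187 were called higher (1.71%) and 18 lower (0.165%). Non-overlap alone held for 232 higher (2.13%) and 63 lower (0.577%). Of the 187, 41 stayed under 1 CPM in all 6 other embryos and so passed the filter through the 3 high embryos alone, which means that they had to differ. In SoLo, where each of the 3 had to lie at least 2 units above or below 020816_08, 443 of 15821 identifiers were called higher (2.80%) and 291 lower (1.84%).

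Both kits called 39 of 10756 identifiers higher (0.363%) and 0 lower (0%). These 39 are 21.1% of the 185 identifiers called higher in SPIA that also passed in SoLo, and 11.3% of the 344 called in SoLo that passed in SPIA. The SoLo libraries come from RNA of the same embryos, so they bear on the kit and are not additional embryos. Across the 10756 identifiers the differences in the kits had a Pearson correlation of 0.191 and a Spearman correlation of 0.145, as a description over genes that share libraries and embryos. In SoLo all 3 high embryos lay above 020816_08 for 51.4% of the identifiers called higher in SPIA, against 25.7% of all 10756.

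**Figure D2:**
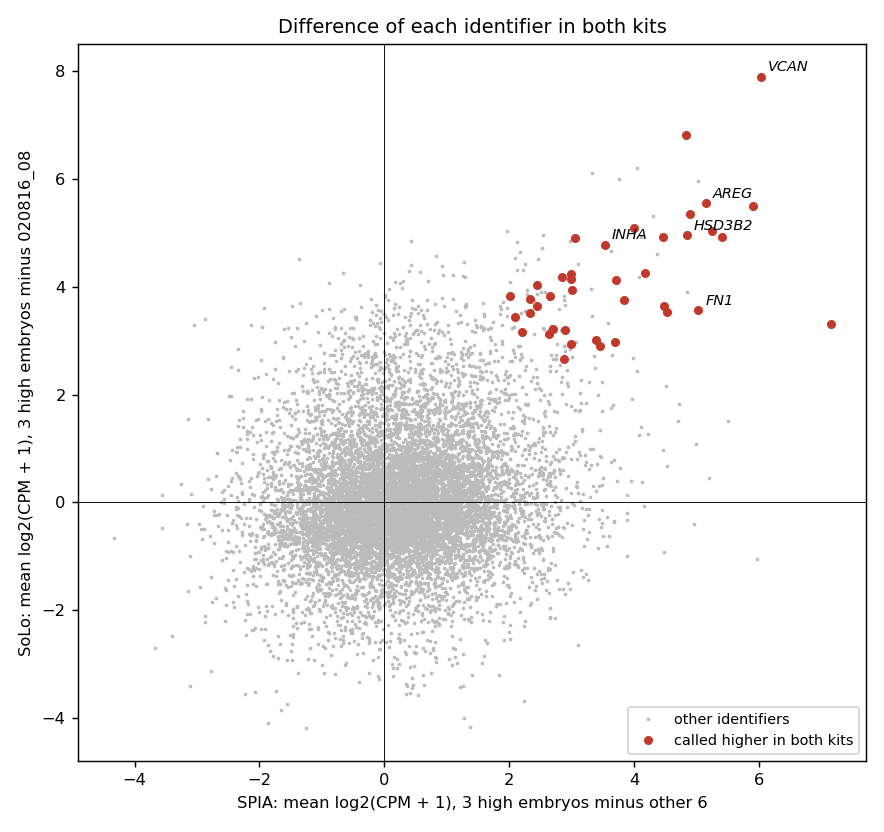
Each point is an identifier that passed in both kits, with the difference of mean log2(CPM + 1) of the 3 high embryos minus the other 6 in SPIA on the horizontal axis and minus 020816_08 in SoLo on the vertical axis. The 39 identifiers called higher in both kits are red and lie at the upper right, with VCAN at 6.03 and 7.91, and the remaining points form a cloud with a Pearson correlation of 0.191 over all 10756.

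All 39 were higher within each title code that held both kinds of embryo. In code 020816, 020816_06 and 020816_07 lay above 020816_08, 020816_09 and 020816_10 for all 39, with a smallest difference of 1.14, and in code 112815, 112815_02 lay above 112815_01, with a smallest difference of 0.83. The SPIA call itself requires this order, since it rests on the same libraries. The difference of at least 2 held for 36 of the 39 within code 020816 and for 32 within code 112815. With the filter of 1 CPM in 3 libraries added, 15 of the 39 were called within code 020816, where only 2 embryos are high. Code 011516 held embryos of the other group only. Scaled CPM of the 39 identifiers were also summed in SPIA and written as a percent of 1 M. The sums were 0.206%, 0.369% and 0.221% in 020816_06, 020816_07 and 112815_02, against 0.00219 to 0.0405% in the other 6. Because of the scaling, they are not shares of the raw counts.

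Of the 39, 28 had a gene name, and 8 of these were on lists of genes of cumulus cells and their surroundings. The 8 include VCAN and INHA, which were used to choose the embryos. In the list for the matrix of the expanding cumulus, 14 of 18 genes had an identifier, 8 passed the SPIA filter and 3 were called higher in SPIA, namely VCAN, FN1 and THBS1. Over all identifiers that passed in SPIA, 1.71% were called higher, which is the background for this and the following lists. FN1, fibronectin, was 153, 595 and 277 CPM in the high embryos in SPIA, against 0.0798 to 152 CPM with a median of 6.27 in the other 6. It ran close to overlap, since 020816_09 held 152 CPM and 011516_02 held 135 CPM. SoLo gave 132, 288 and 302 CPM of FN1, against 18.1 CPM. THBS1, a secreted matrix glycoprotein, averaged 25.3 ± 5.96 CPM (SD, n = 3) in the high embryos and 2.23 ± 2.55 CPM (SD, n = 6) in the other 6 in SPIA, and was not called in SoLo.

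The enzymes and partners that build and cut the hyaluronan matrix were not called in SPIA. HAS2, the main hyaluronan synthase of cumulus cells, was 0.123, 1.84 and 0.166 CPM in the high embryos in SPIA, against 0 to 6.15 CPM in the other 6. CD44, a hyaluronan receptor, had no count in any of the 9 SPIA libraries, and 27 counts in 020816_06 in SoLo. ADAMTS1, a protease that cleaves versican, was 42.8, 24.7 and 68.5 CPM in the high embryos, against 0.396 to 58.9 CPM, with 011516_03 highest of the 6 and overlapping them. Over the 14 list identifiers, passed or not, the median difference was 0.67 in SPIA and 1.10 in SoLo. Over all 26309 identifiers of the table the median was 0 in both kits, and over those that passed it was 0.21 in SPIA and 0.16 in SoLo.

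Beside AREG, none of the genes of the EGF-like and prostaglandin list was called higher in SPIA. The list had 14 identifiers, of which 6 passed. EGFR, the receptor that amphiregulin binds, was 7.56, 0.956 and 9.05 CPM in the high embryos, against 0 to 0.115 CPM in the other 6. These ranges did not overlap, but EGFR reached 1 CPM in only 2 SPIA libraries and did not pass the filter. SoLo gave 2.48, 19.6 and 32.0 CPM of EGFR, against 0 CPM. PTGS2, the inducible prostaglandin synthase, stayed at or below 0.922 CPM in the high embryos and 1.56 CPM in the other 6. The inhibin, activin, follistatin and BMP list had 12 identifiers, of which 9 passed and 2 were called higher in SPIA. These were INHA, which was used to choose the embryos, and ID2. ID2, a target of BMP signalling, was 12.4, 92.4 and 14.0 CPM, against 0 to 8.32 CPM. ID2 was not called in SoLo, where 020816_08 held 16.5 CPM.

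HSD3B2 encodes 3-beta-hydroxysteroid dehydrogenase, which makes progesterone, and it was the only member called in SPIA among 11 identifiers of the steroid and lipoprotein list. Its level was 6.95, 31.1 and 90.1 CPM in 020816_06, 020816_07 and 112815_02 in SPIA, while each of the other 6 embryos had 0 counts. SoLo gave 5.92, 48.7 and 87.2 CPM, against 0 CPM, with the same order of embryos. HSD3B1, its close paralog, stood at 0 in all 9 SPIA libraries and at 4.82 CPM in 112815_02 in SoLo, but near-identical genes can share reads, so how the counts divide between both is uncertain.

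The other steroid genes also varied from embryo to embryo and were not called in SPIA. CYP19A1, aromatase, was 0.738, 21.7 and 2.91 CPM in SPIA, against at most 0.199 CPM in the other 6. These ranges did not overlap, but 020816_06 lay under 1 CPM, so CYP19A1 did not pass the filter. CYP11A1, the enzyme that starts steroid synthesis, was 4.67, 3.21 and 19.6 CPM, against 0 to 3.31 CPM, so 020816_08 overlapped. STAR, which carries cholesterol into mitochondria, was 9.28, 2.10 and 0 CPM, against 0 to 1.60 CPM, with 112815_02 at 0. Thus 020816_07 was the richest of the 3 in aromatase and 112815_02 the richest in CYP11A1 and HSD3B2. The median over the 11 identifiers, passed or not, was 1.57 in SPIA and 1.69 in SoLo.

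No gene of the list of hormone receptors and transcription factors was called in SPIA, where 6 of 16 identifiers passed. FSHR, the receptor for FSH, was 0, 0.0382 and 2.66 CPM in the high embryos and 0 in the other 6, and in SoLo it was 12.8 CPM in 020816_07 and at most 1.61 CPM in the other 3 libraries. NR5A1, steroidogenic factor 1, was 0, 10.6 and 4.57 CPM, against 0 in all 6. RUNX2, a factor induced in luteinising granulosa cells, was 6.52, 50.6 and 178 CPM in SPIA, against 0 to 54.4 CPM, where 020816_09 alone exceeded 1.01 CPM among the 6. In SoLo RUNX2 was called, with 57.4, 94.2 and 97.1 CPM against 0.113 CPM.

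Of 31 identifiers that passed in the lists for contact, proteases and the cytoskeleton, 2 were called higher in SPIA. In 8 of the remaining ones 011516_02 lay at or above the highest of the 3 high embryos. The share over all identifiers was not computed, so the 8 are a description only. GJA1, connexin 43 of the gap junctions between cumulus cells, was 53.4, 78.4 and 121 CPM in SPIA, against 0.305 to 211 CPM, with the 211 CPM in 011516_02. TIMP1, an inhibitor of matrix proteases, was 121, 276 and 203 CPM, against 0 to 298 CPM, again highest in 011516_02. VIM, the intermediate filament vimentin, was 134, 114 and 107 CPM, against 0.575 to 252 CPM, with 252 CPM in the same embryo. In SoLo, where 011516_02 has no library, all 3 genes were called higher. Embryo 011516_02 therefore resembled the high embryos in VCAN, FN1, GJA1, TIMP1 and VIM and the other embryos in INHA, AREG and HSD3B2.

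NRP1, a receptor for semaphorins and VEGF, was the only gene called among 11 contact genes in SPIA. It was 1.97, 29.1 and 2.08 CPM in the high embryos, against 0.0798 to 0.793 CPM. Among 16 mesenchymal cytoskeleton genes TPM2, a tropomyosin, was called with 106, 53.4 and 87.0 CPM against 0 to 37.8 CPM. Among 17 collagen and basement membrane genes HSPG2, which encodes perlecan, was called with 54.5, 15.1 and 18.5 CPM against 0 to 5.57 CPM. No gene of the protease list or of the IGF list was called in SPIA. In SoLo 1 of 12 protease-list identifiers that passed (TIMP1) was called higher, as were 3 of 11 on the IGF list (IGF2, IGFBP4 and IGFBP5). Over all identifiers that passed in SoLo, 2.80% were called higher. IGFBP5, an IGF-binding protein, was 44.8, 628 and 228 CPM in SPIA, against 1.06 to 92.0 CPM, so 020816_06 lay among the other embryos.

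**Figure D3:**
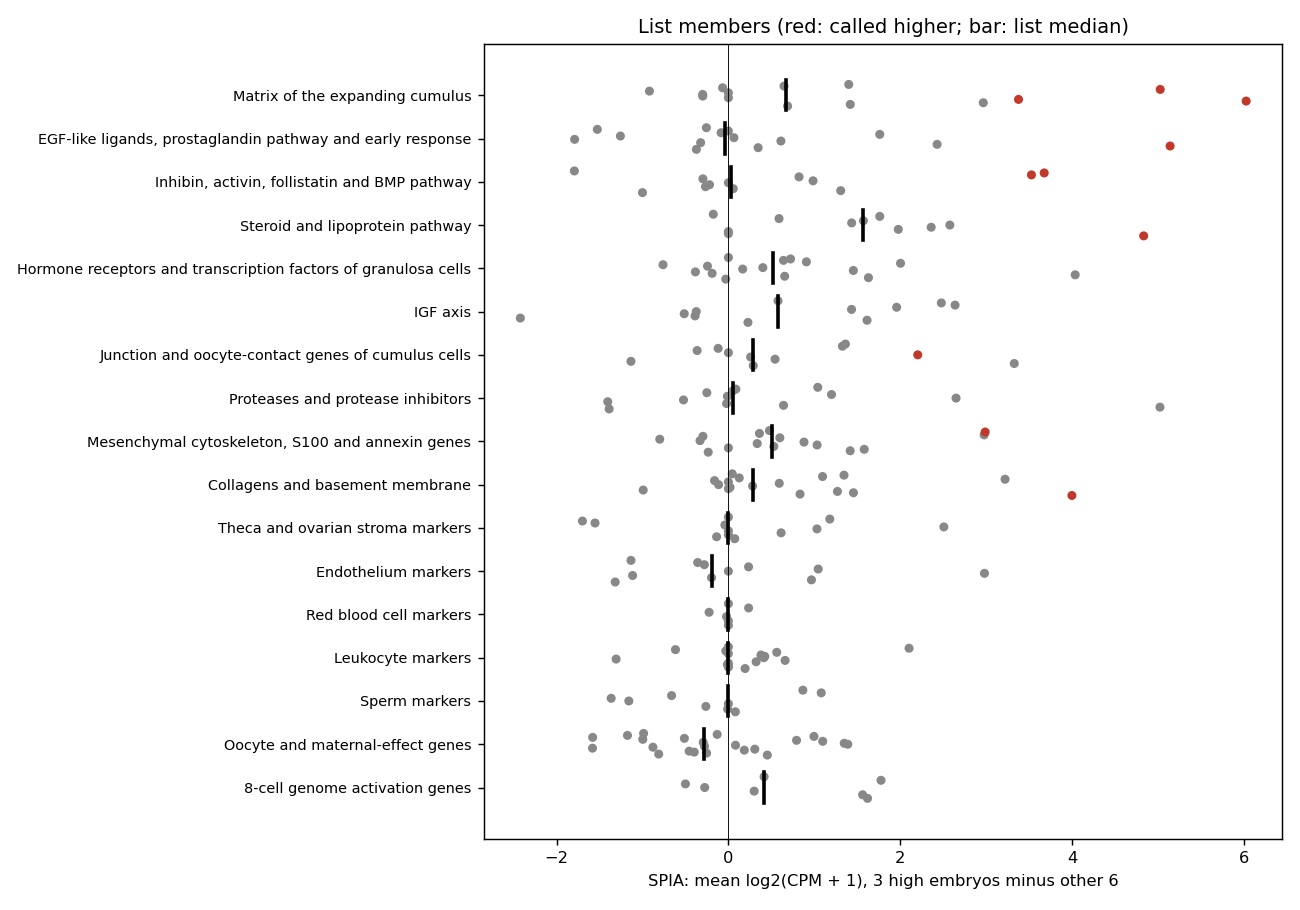
Difference of mean log2(CPM + 1) of the 3 high embryos minus the other 6 in SPIA, on the horizontal axis, for each identifier of 17 gene lists, with called identifiers in red and a bar at the list median. The called points are 1 to 3 members of a list, VCAN at 6.03, AREG at 5.14 and HSD3B2 at 4.83 among them. The lists for hormone receptors and transcription factors, the IGF axis and proteases have none. Those for theca, endothelium, red blood cells, leukocytes, sperm, oocyte and genome activation have none either.

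Outside the lists 20 named genes were called higher in both kits, of which 18 are described here. CRHBP, the binding protein of corticotropin-releasing hormone, was 60.6, 87.9 and 107 CPM, against 0.0399 to 27.5 CPM in SPIA, and 219, 340 and 293 CPM, against 23.1 CPM in SoLo. It separated the groups in each kit, with 020816_09 the highest of the other 6 in SPIA.

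ANTXR1, a cell-surface receptor that binds collagen, was 86.8, 20.3 and 48.7 CPM in SPIA, against at most 0.274 CPM in the other 6. ZC3H12C, a CCCH zinc finger protein, was 34.5, 51.6 and 59.6 CPM, against at most 3.01 CPM. For both, 020816_09 was the highest of the other embryos. GPX3, the secreted glutathione peroxidase, was 14.8, 41.0 and 18.1 CPM, against at most 2.63 CPM. MKX, a homeobox factor known from tendon, was nearly equal in the high embryos at 21.8, 21.1 and 19.9 CPM, against 0 to 8.47 CPM. ARHGEF2, a guanine nucleotide exchange factor bound to microtubules, was similarly even at 12.9, 17.5 and 16.2 CPM, against at most 0.305 CPM.

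ACSL4 activates long-chain fatty acids such as arachidonic acid and was present in most embryos. It was 77.0, 362 and 165 CPM in the high embryos in SPIA, against 0.456 to 38.8 CPM with a median of 21.6 in the other 6. The other members were lower: EPHA2 (an ephrin receptor), ADAM12 (a membrane metalloprotease), ANGPTL4 (an inhibitor of lipoprotein lipase), C1QTNF1 (a secreted C1q and TNF-related protein), PTCHD1 (a patched-domain protein), TBC1D4 (a Rab GTPase activator), ACTR1B (a subunit of dynactin), USP12 (a deubiquitinase), MLPH (melanophilin, a linker in melanosome transport), PLCL1 (a phospholipase C-like protein) and AK3 (a mitochondrial adenylate kinase) ranged from 1.19 to 43.6 CPM in the high embryos and reached at most 6.62 CPM in the other 6. Of these, ACTR1B was uneven at 36.3, 3.06 and 3.41 CPM in SPIA but even at 13.0, 13.3 and 13.5 CPM in SoLo.

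**Figure D4:**
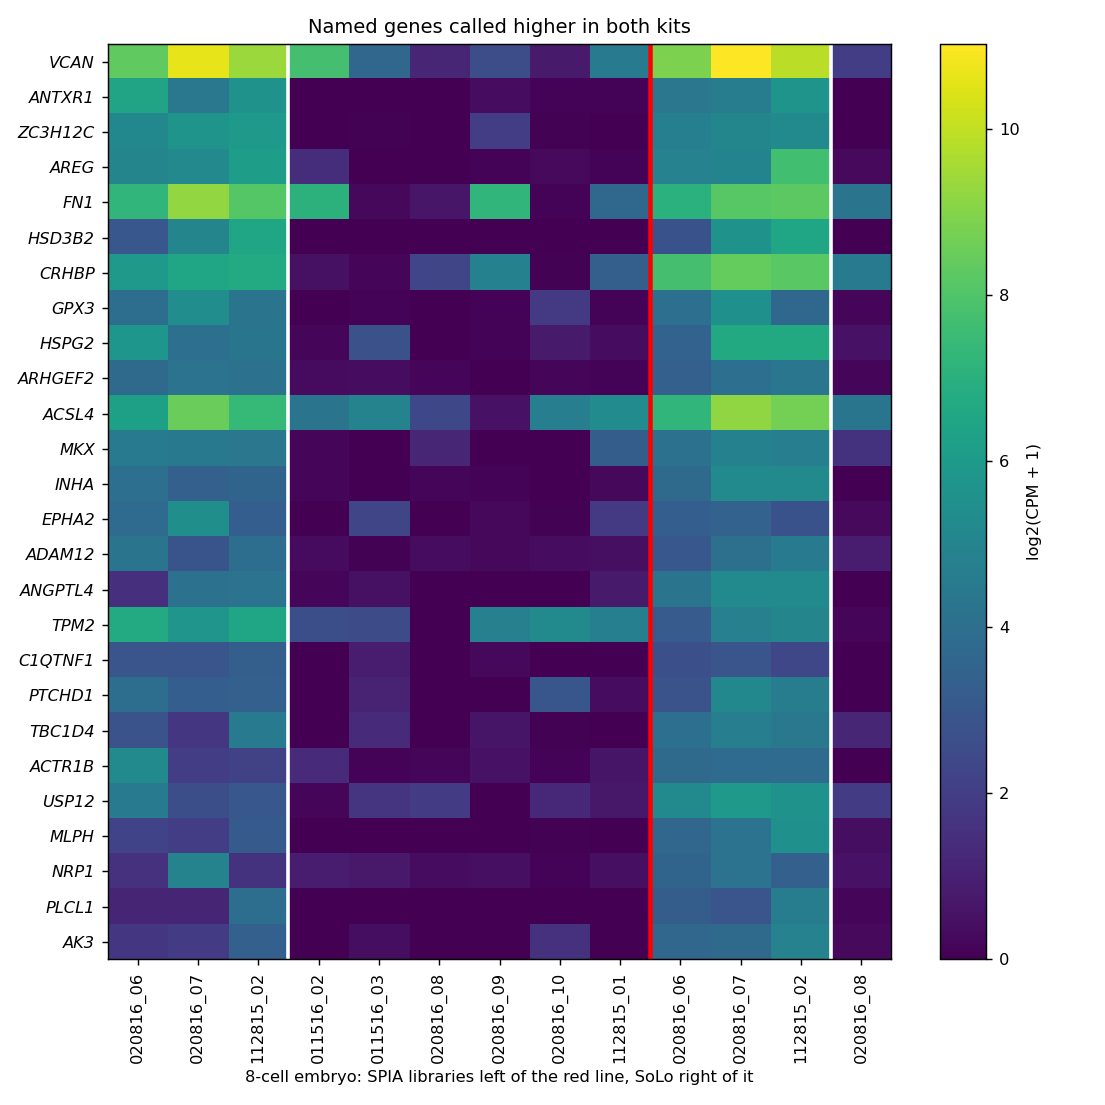
Colour gives log2(CPM + 1) of 26 of the 28 named genes called higher in both kits, 1 row a gene in order of the SPIA difference, with the high embryos left of the other embryos on either side of the red line that parts SPIA from SoLo. VCAN, FN1 and ACSL4 are the strongest rows, and VCAN and FN1 are also bright in 011516_02 at 215 and 135 CPM.

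The remaining 11 of the 39 identifiers have no name in the files. One of them, ENSMMUG00000046891, had the largest SPIA difference of all 39, at 7.14, with 575, 177 and 60.4 CPM against 0 to 2.90 CPM. In SoLo it was far lower, at 6.14, 10.5 and 11.1 CPM against 0 CPM, and the order of the embryos was turned round.

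Against the 27 SPIA libraries of morulas and blastocysts, 15 of the 39 identifiers were higher in the lowest of the 3 high embryos than in every later library. The 39 were selected for being high in these embryos, and the share over all identifiers was not computed. The 15 are therefore a description only. Among these 15 were VCAN, ANTXR1, ZC3H12C, AREG, HSD3B2, CRHBP, GPX3, INHA, ADAM12 and C1QTNF1. CRHBP, at 60.6 CPM or more in the high embryos, reached 9.08 CPM in the later libraries. That value came from a few counts in expanded blastocyst 111715_05 in SPIA, whose library held only 0.601 M counts. Outside the expanded blastocyst SPIA libraries, CRHBP reached at most 1.44 CPM. Its medians in the later libraries, by stage and kit, were 0.166 to 0.525 CPM. Other members were abundant at later stages as well: FN1 reached 350 CPM and HSPG2 254 CPM in expanded blastocysts in SoLo, and ACSL4 ranged from 51.1 to 537 CPM over all later libraries.

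The 3 high embryos did not carry the 39 transcripts in fixed proportions. Relative to the marker sum, ACSL4 was 20.7%, 22.5% and 22.1% in 020816_06, 020816_07 and 112815_02 in SPIA and 30.0%, 27.6% and 35.3% in SoLo. Among the 39, it was the only gene outside the sum whose log2 ratio had an SD under 0.5 over the 3 embryos in both kits, at 0.07 and 0.18. With VCAN left out of the sum ACSL4 no longer stayed within that limit, and MLPH and ENSMMUG00000040879 were the identifiers that did. FN1 was next, at 41.1%, 37.0% and 37.1% in SPIA and an SD of 0.09, but an SD of 0.54 in SoLo. HSD3B2 was 1.87%, 1.93% and 12.1% of the sum in SPIA and 1.17%, 2.27% and 7.32% in SoLo, so 112815_02 held several times more of it per unit of marker with both kits. AREG was likewise lowest relative to the sum in 020816_07, at 2.20% in SPIA and 1.40% in SoLo, and highest in 112815_02, at 9.69% and 17.1%. VCAN made up 79.2 to 97.2% of the sum, so these ratios are close to ratios to VCAN.

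**Figure D5:**
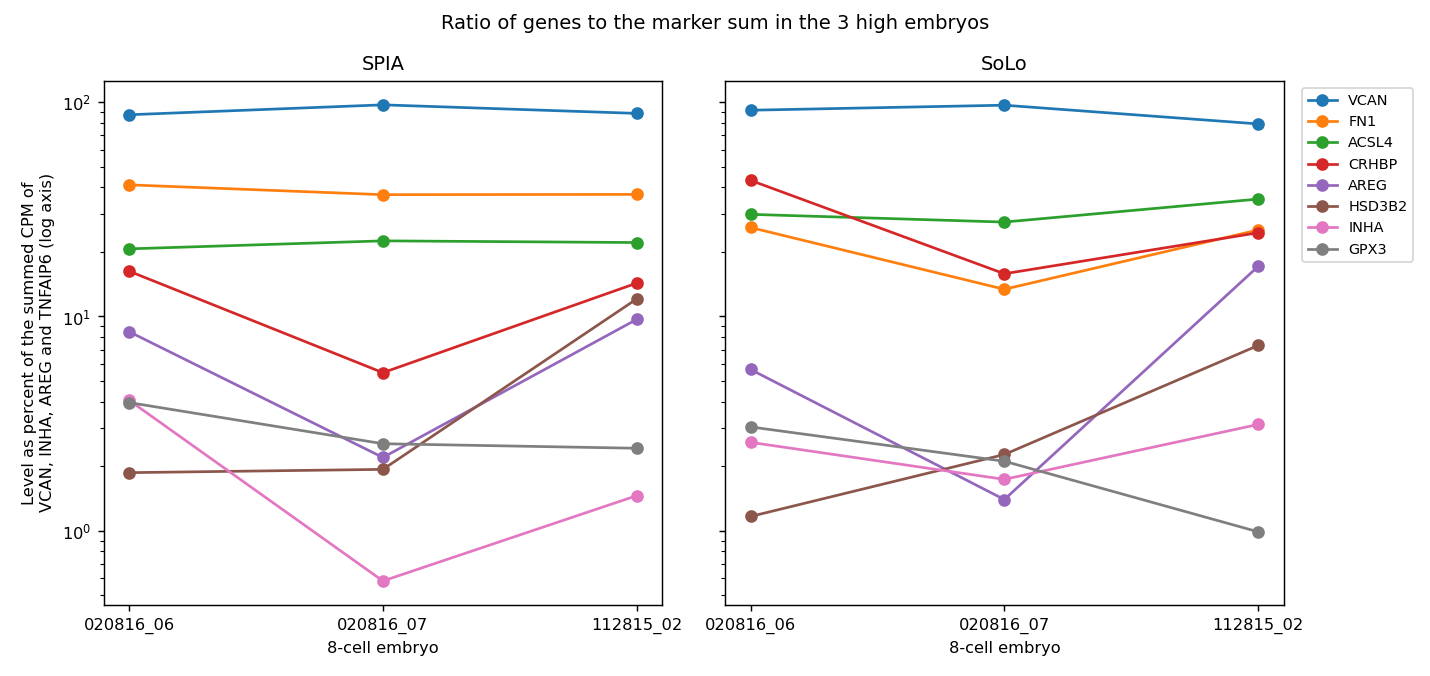
Level of 8 genes as a percent of the summed CPM of VCAN, INHA, AREG and TNFAIP6 in each of the 3 high embryos, on a log axis, with SPIA at the left and SoLo at the right. The line for ACSL4 is nearly flat in both kits, between 20.7 and 35.3%, whereas HSD3B2 is highest in 112815_02 and AREG lowest in 020816_07 in both.

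Markers of other cells gave no called member in SPIA among the 18 identifiers of 5 lists that passed, where 1.71% of all identifiers were called higher, so a count of 0 is near the background. Theca and stroma had 12 identifiers, of which 5 passed, and their summed level was 184 to 334 CPM in the high embryos, against 157 to 934 CPM in the other 6. CYP17A1, the theca enzyme of androgen synthesis, was at most 0.166 CPM in the high embryos and INSL3 was at 0 throughout. PDGFRA, a growth factor receptor, made up most of the sum at 296, 267 and 129 CPM in the high embryos, against 123 to 920 CPM in the other 6. Endothelium had 11 identifiers, of which 6 passed, with sums of 47.4 to 204 CPM against 33.5 to 782 CPM, and ESAM was at 0. Leukocytes had 17 identifiers, of which 4 passed, with sums of 28.7 to 63.5 CPM against 18.5 to 643 CPM, and PTPRC, the common leukocyte antigen, was at 0 in all 9 SPIA libraries. None of 6 red blood cell identifiers passed, and their sum was at most 0.306 CPM against at most 0.828 CPM. Sperm had 9 identifiers, of which 3 passed, with sums of 44.8 to 108 CPM against 96.2 to 766 CPM. Members under 1 CPM in all 3 high embryos numbered 6 of 12 for theca and stroma, 5 of 11 for endothelium, 9 of 17 for leukocytes, 6 of 6 for red blood cells and 5 of 9 for sperm. The highest sums for theca, endothelium, leukocytes and sperm lay in the other 6 embryos, and the part of these cells in the result was not tested. In SoLo, DES and SMCP were called lower in the high embryos, and no member of these 5 lists was called higher. Over all identifiers that passed in SoLo, 1.84% were called lower and 2.80% higher.

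Genes of the embryo itself were not called either way. Over all identifiers 1.71% were called higher and 0.165% lower in SPIA, and 2.80% and 1.84% in SoLo. No call among the 23 and 7 identifiers below is thus near the background. All 23 oocyte and maternal-effect identifiers passed, with a median difference of -0.28 in SPIA and -0.03 in SoLo, and sums of 1009 to 2330 CPM in the high embryos against 1278 to 13119 CPM in the other 6, with the 13119 CPM in 020816_09. All 7 genome activation identifiers passed, with a median of 0.42 in SPIA and -0.41 in SoLo. ZSCAN4, a marker of that wave, was 194, 152 and 215 CPM in the high embryos, against 118 to 170 CPM, so the groups overlapped. UHRF1, a maternal cofactor of DNA methylation, was 348, 152 and 40.1 CPM, against 20.1 to 2613 CPM.

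In SPIA, some Y-linked transcripts were present in the 3 high embryos and in 020816_08 and low in the other 5. These genes were looked at after their values were seen. DDX3Y, an RNA helicase, was 167, 385 and 218 CPM in the high embryos, against 231 CPM in 020816_08 and at most 5.29 CPM in the other 5. RPS4Y1, a ribosomal protein that may share reads with its X-linked and Y-linked copies, was 45.4, 58.3 and 47.5 CPM, against 13.7 CPM in 020816_08 and at most 0.0913 CPM in the other 5. USP9Y, a deubiquitinase, did not follow: it was 2.52, 5.05 and 1.66 CPM, against 12.9 CPM in 020816_08, 79.1 CPM in 020816_09 and at most 0.460 CPM in the other 4. All 4 embryos with a SoLo library held both transcripts there, with DDX3Y at 297, 263 and 261 CPM against 568 CPM. In the SPIA contrast of 3 against 6 embryos, a difference that goes with VCAN and INHA and one that goes with a Y chromosome cannot be told apart except through 020816_08, whereas all 4 embryos compared in SoLo held Y-linked transcripts. The same 4 embryos gave SPIA differences of 8.25 for VCAN, 3.46 for INHA, 5.47 for AREG, 4.83 for HSD3B2 and 4.10 for CRHBP against 020816_08. Y-linked genes varied there, at 0.06 for DDX3Y, 0.16 for EIF1AY, 0.27 for KDM5D, 1.80 for RPS4Y1, -0.69 for RPS4Y2 and -1.86 for USP9Y. RPS4Y1 was also called higher in the SPIA contrast of 3 against 6 embryos. These differences rest on 020816_08 alone, and the part of sex in the result was not tested.

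Few identifiers were called lower, and none of them in both kits. Of the 18 identifiers called lower in SPIA, 6 had all 3 high embryos below 020816_08 in SoLo (33.3%), against 26.6% of all 10756. NANOS1, a germ-cell RNA regulator named here after its values were seen, was 1.72, 4.59 and 0.914 CPM in the high embryos, against 4.76 to 278 CPM in the other 6 in SPIA, and its SoLo difference was 0.14.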

How the data were processed

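The deposited values are raw read counts for each gene identifier. The submitters' processing notes name HISAT2 and DESeq2. How reads were counted, on which build and annotation, and whether strand was used is not given in the sources used here. Antisense partners, overlapping genes and close paralogs may therefore share counts. The table had 26309 identifiers in 52 columns, of which 15078 identifiers had a name and 49 columns matched a sample. The other 3 columns were not used. A pair of columns of code 111215 matched a group only.

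CPM were computed with TMM factors from edgeR 4.0.16 in R 4.3.3, over all matched libraries of a kit, and DESeq2 1.42.0 size factors were an alternative. Differences are of mean log2(CPM + 1), with a pseudocount of 1. Identifiers needed 1 CPM in at least 3 of 9 SPIA or 1 of 4 SoLo libraries. Standard errors are those of the difference of the means, computed from the variance between embryos within each group. For VCAN and INHA, which were used to choose the embryos, they are a description and no measure of precision. No p-values were computed, because the embryos were chosen by their measured transcripts. The calling code was tested on simulated data. Tables and figures used Python 3.11.15, pandas 2.3.3 and matplotlib 3.10.9.

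Embryos, gene lists and markers were chosen with earlier results of these data known. Named genes were the list members, up to 20 further named genes called higher and 10 called lower in both kits by SPIA difference, the 10 that followed the marker sum most closely, and UHRF1, IGFBP5 and PLAGL1. Results for 2 of the named genes are not reported here. A planned count of promoter motifs was not made. Alternatives were other scalings, pseudocounts, thresholds and filters, each title code alone, and leaving out each embryo.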

Additional observations from a re-analysis of the deposited data

Results flagged for a closer look

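Single libraries that stood far from the rest of their group were looked for in groups of 4 and 9 libraries with Dixon's criterion, which flags about 1 in 20 groups by chance. In SPIA, the highest library stood apart for 4 genes. PLCL1 was 15.0 CPM in 112815_02, NRP1 29.1 CPM in 020816_07, ACTR1B 36.3 CPM in 020816_06 and TNFAIP6 107 CPM in 020816_09. The first 3 are genes called higher in both kits, so their SPIA means rest largely on 1 of the 3 high embryos. In SoLo, 020816_08, the only library there outside the high embryos, was far below the others for ZC3H12C at 0.0 CPM, ACTR1B at 0.0 CPM, CRHBP at 23.1 CPM and USP12 at 2.94 CPM. These genes were selected for that difference. TNFAIP6 stood apart in SoLo with 6.29 CPM in 112815_02.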

How the results depend on the processing

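No paired analysis was possible because no result comes from a test, and no fit with a replicate block was made: the embryos were chosen by their values, and each comparison lies within the 8-cell libraries of 1 kit. Counts are given as called higher or lower in SPIA, higher or lower in SoLo, and higher or lower in both kits, where the main values were 187, 18, 443, 291, 39 and 0. With DESeq2 size factors or total counts all 6 stayed within 1.5 times, and 37 and 38 of the 39 identifiers remained called in both kits. A pseudocount of 0.5 gave 689 higher in SoLo, and one of 5 gave 65, 7, 55, 7 and, higher in both, 11, by construction, since it shrinks low genes. A threshold of 1 log2 unit gave 53 lower in SPIA, 1223 and 898 in SoLo, and 65 and 3 in both, and a threshold of 3 gave 90, 5, 113, 51 and, higher in both, 13. Requiring 1 CPM in 7 of 9 libraries left 51 higher in SPIA. Leaving out each embryo in turn gave 230 to 332 higher and 20 to 84 lower in SPIA, 682 to 757 and 434 to 566 in SoLo, and 37 to 51 and 0 to 7 in both. Without 020816_09, which stood apart, 230 were higher and 25 lower, and without 011516_02, 253 and 60. Leaving out 020816_06, 020816_07 or 112815_02 kept 22, 25 or 23 of the 39 as called in both kits. The filter accounts for most of the loss: 14 of the 39 stayed under 1 CPM in all 6 other embryos and cannot pass it with only 2 high embryos. Without the filter, an alternative chosen after seeing the data, 36, 37 or 35 met the SPIA call. Within code 020816 there were 619 higher and 259 lower in SPIA. With the SPIA libraries of only the 4 embryos that also have SoLo libraries, an alternative chosen after seeing the data, there were 774 and 451 in SPIA and 76 and 12 in both, with 28 of the 39 among the 76. Fewer embryos make non-overlap easier. With VCAN left out of the marker sum, 2 identifiers followed it within the limit, MLPH and ENSMMUG00000040879, and ACSL4 did not.

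Of the single-gene differences computed under the alternatives, 672 stayed within the spread, 74 moved and 6 reversed. The 6 were genes called lower in SPIA whose SoLo differences were above 0: PURB 0.15, ZC2HC1A 0.35, CDK2AP1 0.47, NANOS1 0.14, SELENOI 0.096 and KCMF1 1.98, and the cause was not tested. Of the list counts, 218 were the same within 1.5 times and 54 moved. SoLo calls rest on 1 library outside the high embryos, 020816_08, and genes near 1 CPM on a few counts.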

Other observations

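PLAGL1, IGF2, PAPPA and COL6A3 were not called in both kits, and IGF2 and COL6A3 overlapped between the groups in SPIA. PLAGL1, an imprinted zinc finger gene, was 30.6, 71.6 and 55.6 CPM in 020816_06, 020816_07 and 112815_02 in SPIA, against 0 to 21.5 CPM in the other 6, where 020816_10 was the highest and the other 5 stayed at or below 0.496 CPM. In SoLo it was 15.3, 28.3 and 31.2 CPM, against 7.69 CPM in 020816_08, short of the threshold. IGF2, an imprinted growth factor, was 17.3, 85.3 and 53.0 CPM in SoLo, against 0.339 CPM, while in SPIA the high embryos at 13.0, 127 and 39.0 CPM overlapped the other 6 at 0 to 84.7 CPM. PAPPA, a protease that cleaves IGF-binding proteins and is made by granulosa cells, was 2.77, 0.841 and 28.7 CPM in the high embryos in SPIA, against at most 0.144 CPM in the other 6, and 6.89, 56.5 and 42.5 CPM, against 1.13 CPM in SoLo. COL6A3, a chain of collagen VI, was 1.23, 105 and 60.1 CPM in SPIA, against 0 to 59.3 CPM, with 020816_09 the highest of the 6.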
